A study of Mus musculus with 6 samples.

Results

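The genes described here make sterols and fatty acids, or control and transport their products, in mouse embryonic stem (ES) cells with and without Dicer. Dicer is the enzyme that releases mature microRNAs from their hairpin precursors. The members were chosen by name, as 39 genes of the 2 pathways. Of these, 37 were represented on the arrays by at least 1 probe set, a group of short probes, that the platform annotation assigns to a single gene. Acat2 and Acsl1 were not analysed here. Where several probe sets read a member, the one with the highest mean log2 intensity over the 6 arrays stands for it. The 37 were set beside all 12927 genes tested in the series.

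The study hybridised total RNA, amplified into biotin-labelled cRNA, to 6 Affymetrix arrays. Both lines are embryonic stem cells in the undifferentiated state, and by genotype neither carries Dicer on both alleles. The Dicer -/- line, called null here, is 27H in the sample titles and 27H10 in the series title, and gave 3 arrays. The Dicer +/- line D4, called heterozygous here, also gave 3 arrays. Each genotype is represented by 1 line, so genotype and line cannot be told apart. Nothing in the labels ties the arrays of a line to separate cultures, and p-values therefore measure the spread between arrays, which may be technical. The labels give no age, strain or further treatment.

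Cholesterol is built from acetyl-CoA through mevalonate, the isoprenoids and squalene to lanosterol, which is then trimmed to cholesterol. Fatty acids grow from the same acetyl-CoA and are later lengthened by elongases, given double bonds by desaturases and activated by acyl-CoA synthetases. Both pathways answer to the SREBP transcription factors, which leave the endoplasmic reticulum with their escort Scap when sterol is scarce and are held there by the Insig proteins when it is plentiful.

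One microRNA belongs to this gene group by position. Mir33 lies within the bounds of Srebf2, which span chr15:82147269-82205379 in GRCm38.p6, and its main product is known to repress Abca1 and Npc1 in mouse and human, and Abcg1 in mouse. The 2 mature products are shown because Dicer is needed to release them, with the seed (bases 2 to 8) in capitals, from RefSeq, plus strand. The arrays did not read mature microRNAs.
mmu-miR-33-5p, chr15:82198127-82198147: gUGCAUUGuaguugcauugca
mmu-miR-33-3p, chr15:82198167-82198188: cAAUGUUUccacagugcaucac

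The arrays of a line correlated at 0.967 to 0.973 across the tested genes, and those of different lines at 0.924 to 0.928. The Dicer1 transcript did not differ past the test. Its brighter probe set read 1256, 1132 and 1203 in null cells, against 1117, 1124 and 1053 in heterozygous cells, a log2 difference of 0.12 (limma adjusted p 0.264). The deleted stretch is not named, and a probe set outside it checks nothing. All 8 ES cell markers were bright in every array, at 3813 or above, and their summed intensity was 93209 to 98355 in null and 100237 to 105182 in heterozygous cells. Markers of other cells were weaker in null cells as sums: 929 to 1089 against 1389 to 1656 for 6 of 8 feeder fibroblast genes, 280 to 299 against 362 to 645 for 7 of 10 endoderm genes, and 5835 to 6321 against 10992 to 12204 for 5 of 6 trophectoderm genes. Col1a1, a defining fibroblast collagen, read 4.44 to 7.99 in null and 38.3 to 90.9 in heterozygous cells, and no array exceeded 65.5 for Col1a2 or 56.2 for Col3a1. Dcn, a matrix proteoglycan of the same list, ran the other way, at 203 to 316 in null and 16.03 to 58.4 in heterozygous cells. Acta2, the brightest feeder gene, read 427 to 631 in null and 984 to 1274 in heterozygous cells. The direction of the feeder sum rests on Acta2. Most of the trophectoderm gap lay in 2 keratins. Krt8 read 2666 to 2737 in null and 4678 to 4742 in heterozygous cells, and Krt18 1786 to 1962 and 4999 to 5631. Eomes and the dim Cdx2 were also lower in null cells, while Tfap2c was at a log2 difference of 0.04. Of the 7 endoderm genes, only Gata6 passed the test, and only 2 stayed above the intensity filter in every array. No marker reading was exactly 0. The part these cells play in the differences below was not tested, and in bulk RNA fewer cells of a type and less RNA per cell cannot be told apart.

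The sterol and fatty acid genes did not move as a block. Ebp, which encodes a sterol isomerase late in cholesterol synthesis, was the 1 member called higher in null cells, and Acsl4, an acyl-CoA synthetase with a preference for arachidonate, was the 1 called lower. A call needed a limma adjusted p under 0.05 over all genes and a difference of at least 2-fold. That is 2 of 37 members called either way, beside 13.4% of all genes tested, of which 7.23% were called higher and 6.20% lower. By the adjusted p without a fold limit, 11 members rose and 9 fell, against 24.5% and 24.3% of all genes. That makes 20 of 37 members past the test, 54.1%, beside 48.8% of all genes. Readings of null and heterozygous cells were fully separate for 22 of 37 members, 59.5%, beside 57.2% of all genes. The median log2 difference, null minus heterozygous, was 0.02 over the members and -0.01 over all genes.

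That balance depended on which scaling was used. Quantile normalization kept it, with 10 members higher, 9 lower and a median difference of 0.0023 over the members. With arrays centred on their medians, the median difference of all genes moved to 0.14 and that of the members to 0.17. Those array medians, taken over all probe sets, were 44.9 to 52.7, not far above the intensity filter of 32. The members past the test then split into 17 higher and 4 lower. Those 4 were Pmvk, Scd2, Acsl3 and Acsl4, and the falls of Hmgcs1, Mvd, Lss, Dhcr7 and Stard4 no longer passed. Over all genes the same centring gave 4181 higher and 2101 lower, against 3162 and 3143 as deposited. Every member was above the filter in every array. The lowest reading of any of the 37 was 125, against the filter at an intensity of 32, and no member was kept by 1 group alone.

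**Figure D1:**
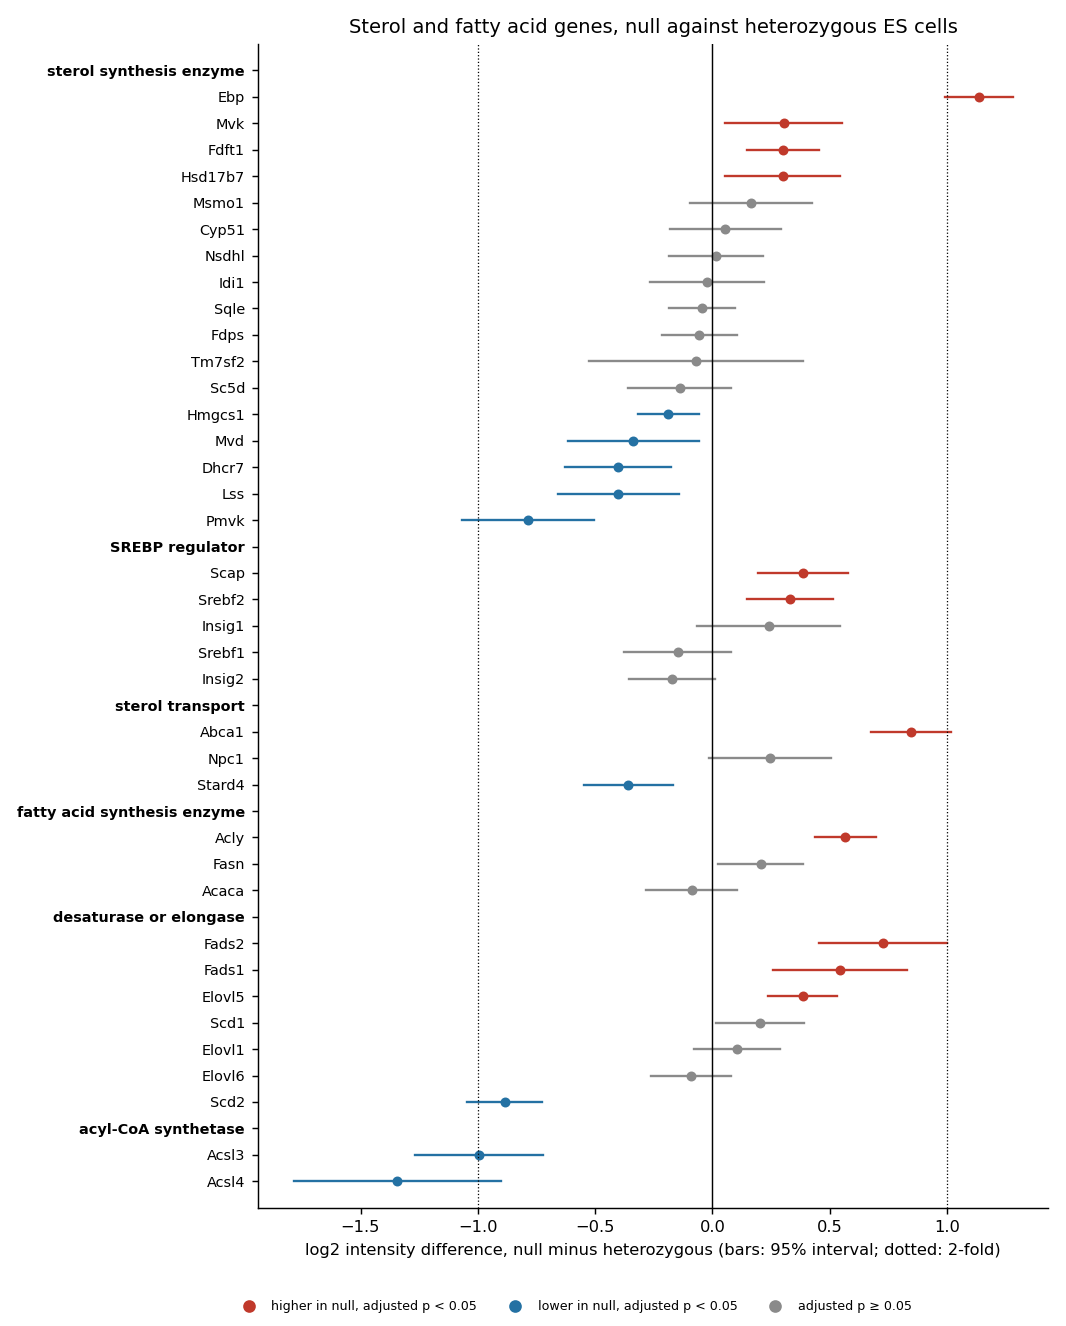
Log2 intensity difference (null minus heterozygous) of the 37 members, sorted by role, each with its 95% interval from limma; dotted lines mark a 2-fold difference. Ebp at 1.13 and Acsl4 at -1.34 lie beyond those lines, Acsl3 at -0.99 lies just inside, and most sterol enzymes lie close to 0.

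**Figure D2:**
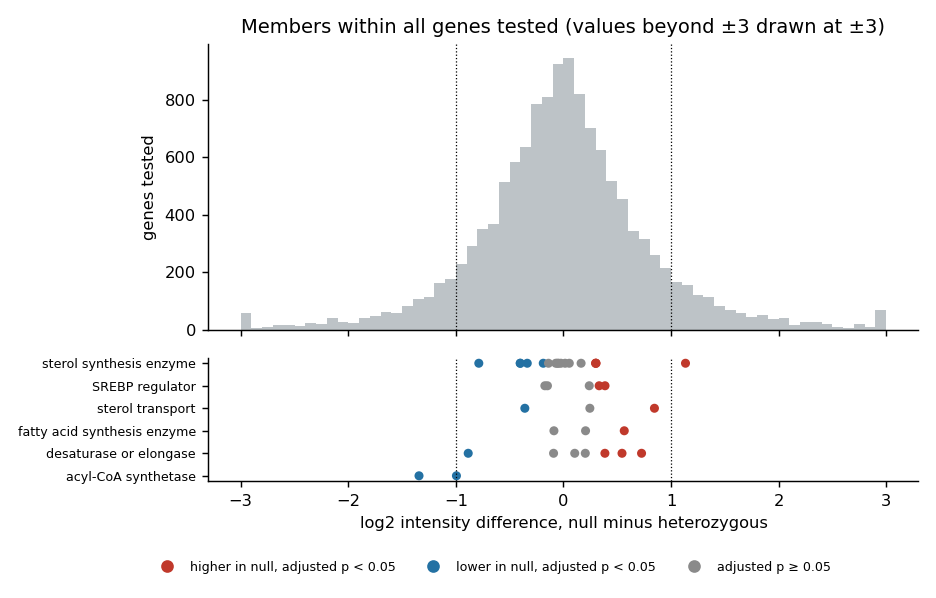
Histogram of the log2 differences of all 12927 genes tested (top, number of genes per bin of width 0.1) and the 37 members by role on the same axis (bottom). The members fill the same central range as the other genes, from -1.34 to 1.13.

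Of the 17 measured enzymes that turn acetyl-CoA into cholesterol, 4 rose, 5 fell and 8 did not pass the test. The share that passed was 52.9%, beside 48.8% of all genes. Differences within 0.5 of 0 on the log2 scale were found for 15 of the 17, 88.2%, beside 56.8% of all genes, a description with no test. The largest change was in Ebp, which read 3474, 3488 and 3302 in null cells, against 1518, 1593 and 1564 in heterozygous cells. Every null array was above every heterozygous array. The log2 difference was 1.13 ± 0.07 (SE), a 2.20-fold rise (limma adjusted p 1.84e-07), and in all 18 alternative settings it was between 1.12 and 1.29. Ebp, like Nsdhl and Acsl4, is X-linked, and the median over tested X-linked genes was -0.15.

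In the mevalonate arm, Hmgcs1, Pmvk and Mvd fell and Mvk rose. Hmgcs1, the synthase that commits carbon to the arm, read 9498, 9206 and 8810 in null cells, against 10811, 10407 and 10116 in heterozygous cells. The lines did not overlap, but the difference was only -0.19 ± 0.06 (SE; limma adjusted p 0.021). As a mean over its probe sets Hmgcs1 was at -0.12 and did not pass (adjusted p 0.435). Mvk, mevalonate kinase, rose by 0.30 (adjusted p 0.0438). Pmvk, which adds the next phosphate, read 585, 503 and 496 in null cells, against 1067, 927 and 758 in heterozygous cells. It had the largest fall among sterol enzymes, -0.79 ± 0.13 (SE), with an adjusted p of 0.000376. Mvd, the decarboxylase that follows, was at -0.34 with an adjusted p of 0.0478. Idi1, which isomerises the isoprene unit, and Fdps, which joins such units, differed by -0.02 and -0.06, with 95% intervals of -0.27 to 0.22 and -0.22 to 0.10.

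The squalene and lanosterol steps also split. Fdft1, squalene synthase, rose by 0.30 ± 0.07 (SE; limma adjusted p 0.00389), but was at 0.04 (adjusted p 0.757) without probe sets that share sequence. Sqle, squalene epoxidase and a slow step of the pathway, read 3857, 3758 and 3568 in null cells, against 3782, 3998 and 3758 in heterozygous cells. These readings interleave, and the difference of -0.05 had a 95% interval of -0.19 to 0.10. Lss, which closes the sterol rings, fell by 0.40, and so did Dhcr7, the last reductase, by 0.40. With arrays centred on medians both were at -0.25 and did not pass, with adjusted p values of 0.123 and 0.104. Lss was at -0.12 (adjusted p 0.693) as a mean over its probe sets. Between them lie Cyp51, Msmo1 and Nsdhl, which strip methyl groups from lanosterol, with differences of 0.05, 0.16 and 0.02. The Msmo1 value turned on single arrays, at 0.0087 without null replicate 2 and 0.28 (adjusted p 0.0436) without null replicate 3, and was 0.32 (adjusted p 0.0406) with arrays centred on medians. Hsd17b7, a chromosome 1 gene for a ketosteroid reductase of the same demethylation, rose by 0.30 with an adjusted p of 0.0444. Tm7sf2, a sterol reductase and the dimmest member, was at -0.07 with a 95% interval of -0.53 to 0.39, and Sc5d, a desaturase, was at -0.14.

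Some of these passes sat near the threshold. Mvd, Mvk and Hsd17b7 had adjusted p values of 0.0478, 0.0438 and 0.0444, and each lost its pass when single arrays were left out. Mvd lost it without heterozygous replicate 1 or 2 or without any one null array, at adjusted p values of 0.0757 to 0.211. Mvk lost it without heterozygous replicate 1 or 2 or null replicate 1 or 2, at 0.0875 to 0.139, and Hsd17b7 lost it without any one array other than null replicate 3, at 0.0629 to 0.174. Hmgcs1 was at 0.0832, 0.0643 and 0.0563 without heterozygous replicate 1, heterozygous replicate 2 and null replicate 2. Lss was at 0.0657 without heterozygous replicate 1.

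Of the 5 measured SREBP regulators, Scap and Srebf2 passed the test and 3 did not, so that 40% passed, beside 48.8% of all genes. All 5 differed by less than 0.5 on the log2 scale, beside 56.8% of all genes. Scap, the escort, read 1790, 1637 and 1697 in null cells, against 1349, 1410 and 1171 in heterozygous cells. No null array fell to the heterozygous range, and the log2 difference was 0.39 ± 0.09 (SE; limma adjusted p 0.00326). Srebf1, whose products favour fatty acid genes, read 793, 708 and 911 in null cells, against 906, 841 and 915 in heterozygous cells, a difference of -0.15 that did not pass (adjusted p 0.261). Insig1, which is itself an SREBP target, differed by 0.24 with a 95% interval of -0.06 to 0.54, and Insig2 by -0.17 with an interval of -0.36 to 0.01.

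Srebf2, the factor that favours sterol genes and hosts Mir33, gave 2 answers. Its brighter probe set read 1165, 1337 and 1227 in null cells, against 1026, 991 and 944 in heterozygous cells. That is a rise of 0.33. The other read 725, 732 and 739 in null cells, against 1004, 932 and 844 in heterozygous cells, a fall of 0.34. Both passed when every probe set was tested, at limma adjusted p values of 0.0115 and 0.0155, and as a mean over both the difference was -0.0028 (adjusted p 0.98). No direction is therefore given for Srebf2, although its brighter probe set is 1 of the 11 counted as higher. It was the 1 member with probe sets past the test in both directions.

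Promoter sequence was read for the 31 members that have a window in the RefSeq table of assembly GRCm38.p6, which covers 250 bases before to 50 after a start. Motifs searched on both strands were TCACNCCAC, a form of the sterol regulatory element that SREBPs bind, CCAAT, bound by their partner NF-Y, and GGGCGG, bound by Sp1. The sterol element was found in 2 of 31 members (6.45%), Hmgcs1 and Acsl1, against 1.44% of all genes in the table and 1.53% of the tested genes. CCAAT was found in 24 of 31 (77.42%), against 41.06% of all genes and 42.88% of the tested genes. GGGCGG was found in 26 of 31 (83.87%), against 38.2% of all genes and 68.11% of the tested genes. A match is only letters in a window, and these shares carry no test. The measured members with CCAAT had a median difference of 0.02, with 6 higher and 6 lower among 23, and the 6 without it had a median of 0.15, with 3 higher and 1 lower.

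The 150 bases just before the start are shown for Ebp, the member that rose most, for Hmgcs1, the measured member with the sterol element, and for Srebf2, the host of Mir33. They are written 5′ to 3′ on the strand of the gene, with motif matches in capitals (CCAAT reads ATTGG and GGGCGG reads CCGCCC on the other strand). No matches of different motifs overlapped in these stretches.
Ebp, chrX:8193513-8193662, minus strand: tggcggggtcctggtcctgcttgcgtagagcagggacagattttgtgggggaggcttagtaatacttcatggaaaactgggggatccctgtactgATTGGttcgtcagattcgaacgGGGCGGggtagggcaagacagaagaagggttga
Hmgcs1, chr13:119690201-119690350, plus strand: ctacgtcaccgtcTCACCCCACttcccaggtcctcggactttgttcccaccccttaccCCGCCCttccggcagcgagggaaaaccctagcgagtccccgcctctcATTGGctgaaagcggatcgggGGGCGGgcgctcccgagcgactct
Srebf2, chr15:82147119-82147268, plus strand: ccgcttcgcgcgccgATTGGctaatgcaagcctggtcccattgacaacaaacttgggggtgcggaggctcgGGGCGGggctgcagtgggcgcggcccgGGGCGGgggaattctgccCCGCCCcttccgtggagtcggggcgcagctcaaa

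Of the 3 members that move sterol, Abca1 rose and Stard4 fell. Abca1, which exports cholesterol to lipoprotein particles and is a known target of miR-33, read 1422, 1355 and 1496 in null cells, against 794, 797 and 785 in heterozygous cells. The null arrays were all well above the heterozygous ones, a 1.80-fold rise (log2 0.85 ± 0.08, SE; limma adjusted p 5.56e-06). Centred on array medians the difference was 1.001, just past 2-fold. Npc1, the lysosomal cholesterol exporter and another known miR-33 target, read 430, 463 and 388 in null cells, against 333, 391 and 356 in heterozygous cells. The lines overlapped by 1 array, and the difference of 0.25 did not pass (adjusted p 0.109, 95% interval -0.01 to 0.51). Stard4, a soluble sterol carrier, read 637, 626 and 587 in null cells, against 772, 794 and 805 in heterozygous cells, a fall of 0.36 with an adjusted p of 0.00497. Centred on array medians it was at -0.20 and did not pass (adjusted p 0.112).

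Among the enzymes that make palmitate, Acly stood out. Acly, which cuts citrate into the acetyl-CoA that both pathways use, read 12361, 12444 and 11447 in null cells, against 8315, 8191 and 7981 in heterozygous cells. The lines were far apart, a 1.48-fold rise (log2 0.57 ± 0.06, SE; limma adjusted p 1.42e-05). Acaca, which makes malonyl-CoA, read 921, 969 and 999 in null cells, against 1121, 1001 and 956 in heterozygous cells, a difference of -0.09 with a 95% interval of -0.28 to 0.10. Fasn, the synthase itself, read 6131, 6516 and 6243 in null cells, against 6244, 5172 and 5037 in heterozygous cells. One heterozygous array lay within the null range, and the difference of 0.21 missed the test at an adjusted p of 0.0586. Without heterozygous replicate 1 it was 0.30, with an adjusted p of 0.0058, and without any other single array it was between 0.15 and 0.22, with adjusted p values of 0.0739 to 0.197. Centred on array medians it was 0.36 (adjusted p 0.00464). Acly, Acaca and Fasn all lie on chromosome 11, as does Srebf1, and the tested genes of that chromosome had a median of 0.29. The part of the chromosome in the Acly difference was not tested.

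**Figure D3:**
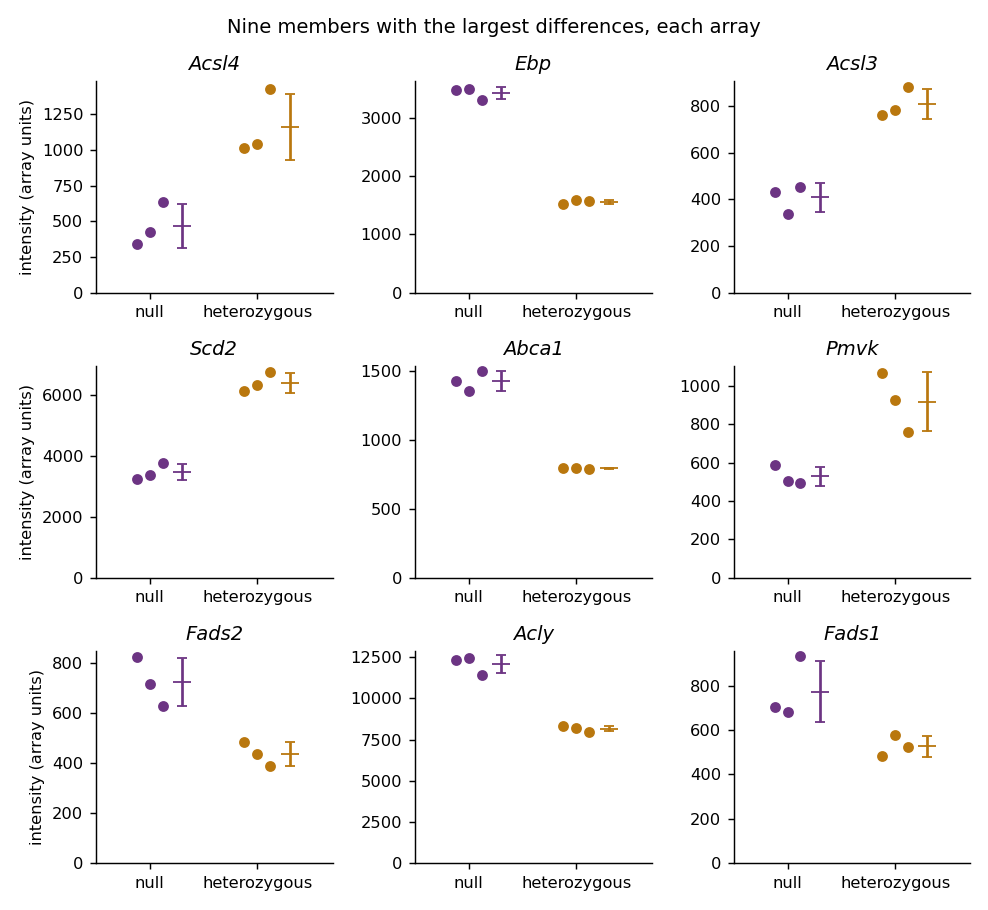
Intensity (array units, axis from 0) on each array for the 9 members with the largest differences past the test, with null arrays left and heterozygous arrays right; points are arrays in replicate order, and the bar beside them is the mean ± SD (n = 3). In all 9 panels the points of the 2 lines do not overlap.

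Desaturases and elongases changed in both directions. Of 7 measured, 3 rose, 1 fell and 3 did not pass, so that 57.1% passed, beside 48.8% of all genes. Scd2, a stearoyl-CoA desaturase, read 3261, 3385 and 3766 in null cells, against 6120, 6318 and 6774 in heterozygous cells. The heterozygous readings were all well above the null ones, and null cells were 1.85-fold lower (log2 -0.89 ± 0.07, SE; limma adjusted p 2.36e-06). Its paralogue Scd1, which makes the same product, read 1301, 1307 and 1134 in null cells, against 1119, 1024 and 1103 in heterozygous cells, a difference of 0.20 that did not pass (adjusted p 0.0724). A dimmer Scd1 probe set had the opposite sign, at -0.24, and did not pass either (adjusted p 0.273). Within arrays, the log2 ratio of Scd2 to Scd1, by the brightest probe set of each, was lower in null cells by a difference of -1.09. The exact two-sided permutation p was 0.1, the smallest that 3 arrays against 3 allow. That test could therefore not reach the p threshold used elsewhere, whatever the readings, and nothing is concluded from it.

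The desaturases of polyunsaturated fatty acids rose together. Fads2, the delta-6 desaturase that opens this route, read 827, 719 and 631 in null cells, against 485, 439 and 390 in heterozygous cells. Fads1, the delta-5 desaturase that acts after it, read 704, 683 and 932 in null cells, against 480, 577 and 521 in heterozygous cells. Neither gene had overlapping lines. Their log2 differences were 0.73 ± 0.12 and 0.54 ± 0.13 (SE), with limma adjusted p values of 0.000539 and 0.00465. Elovl5, which lengthens the products of Fads2, rose by 0.39 ± 0.07 (adjusted p 0.000587), but was at 0.16 (adjusted p 0.0723) without probe sets that share sequence. Elovl1, which makes very long saturated chains, and Elovl6, which lengthens palmitate, were at 0.10 and -0.09, with 95% intervals of -0.08 to 0.29 and -0.26 to 0.08.

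The 2 measured members that are long-chain acyl-CoA synthetases fell by the largest amounts in the group. Acsl4 read 343, 424 and 636 in null cells, against 1011, 1045 and 1429 in heterozygous cells. Replicate 3 was the highest array in both lines, and the highest null reading remained below the lowest heterozygous one. Null cells were 2.54-fold lower (log2 -1.34 ± 0.20, SE; limma adjusted p 0.000206). Acsl3, which sits on the endoplasmic reticulum and lipid droplets, read 431, 338 and 455 in null cells, against 761, 783 and 880 in heterozygous cells. Its log2 difference was -0.99 ± 0.12 (SE), 1.99-fold lower, with an adjusted p of 5.51e-05. This was just short of the 2-fold threshold, which it passed without heterozygous replicate 1 (-1.04), heterozygous replicate 2 (-1.02), null replicate 1 (-1.04) or null replicate 3 (-1.08). It did not pass even the adjusted p as a mean over its probe sets, at -0.54 (0.0524), or without probe sets that share sequence, at -0.45 (0.224). Acsl3, Insig2 and Hsd17b7 are chromosome 1 genes, and the median over tested genes there was 0.31. Their chromosome's part in these values was not tested.

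Further probe sets of a gene read the same RNA on the same 6 arrays, so they check the probes and do not test the lines again. Of the members, 23 were read by 2 or more, 78 probe sets in all with those of the other members. For 12 of the 23 the brightest probe set passed when all 26545 probe sets were tested, and for 8 of these 12 every further probe set had the same sign. The 3 probe sets of Acsl4 were at -1.34, -1.49 and -1.82, and the 3 of Scd2 at -0.89, -1.16 and -1.29. All 6 passed. The 3 of Abca1 were at 0.85, 0.63 and 0.43, the last at an adjusted p of 0.185. For Fads2 they were at 0.73, 0.44 and 0.47, the last at a limma adjusted p of 0.101, and for Mvk at 0.30 and 0.53. Over all probe sets, the brightest of Mvk, Mvd and Hsd17b7 did not pass, at limma adjusted p values of 0.0606, 0.0666 and 0.0599.

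Other members were less uniform. Hmgcs1 was at -0.19 with its brightest probe set and at 0.15, -0.03, -0.32 and -0.23 with dimmer ones. Of these, those at -0.19 and -0.32 passed. The 2 dimmer probe sets of Acsl3 were at -0.45 and -0.16 and did not pass (limma adjusted p 0.253 and 0.68). Fdft1 was at 0.30 with one probe set and 0.04 with the other, Elovl5 at 0.39 and 0.16, and Lss at -0.40 with the brightest and 0.45 with a dimmer one (adjusted p 0.0999). A dimmer probe set of Sc5d read 250, 244 and 232 in null cells, against 175, 157 and 183 in heterozygous cells. That rise of 0.49 passed (limma adjusted p 0.0194), while the brightest probe set was at -0.14 and did not pass. A dim Elovl6 probe set read 51.7, 38.8 and 50.4 in null cells, against 100, 137 and 89.9 in heterozygous cells. That fall of 1.21 on the log2 scale passed (limma adjusted p 0.0081). The brighter pair did not share it, at -0.18 and -0.09, and did not pass. Ebp, Pmvk, Scap, Fads1 and Npc1 were among the 14 members with 1 probe set above the filter. The others were Dhcr7, Fasn, Fdps, Insig1, Msmo1, Nsdhl, Sqle, Srebf1 and Tm7sf2.

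**Figure D4:**
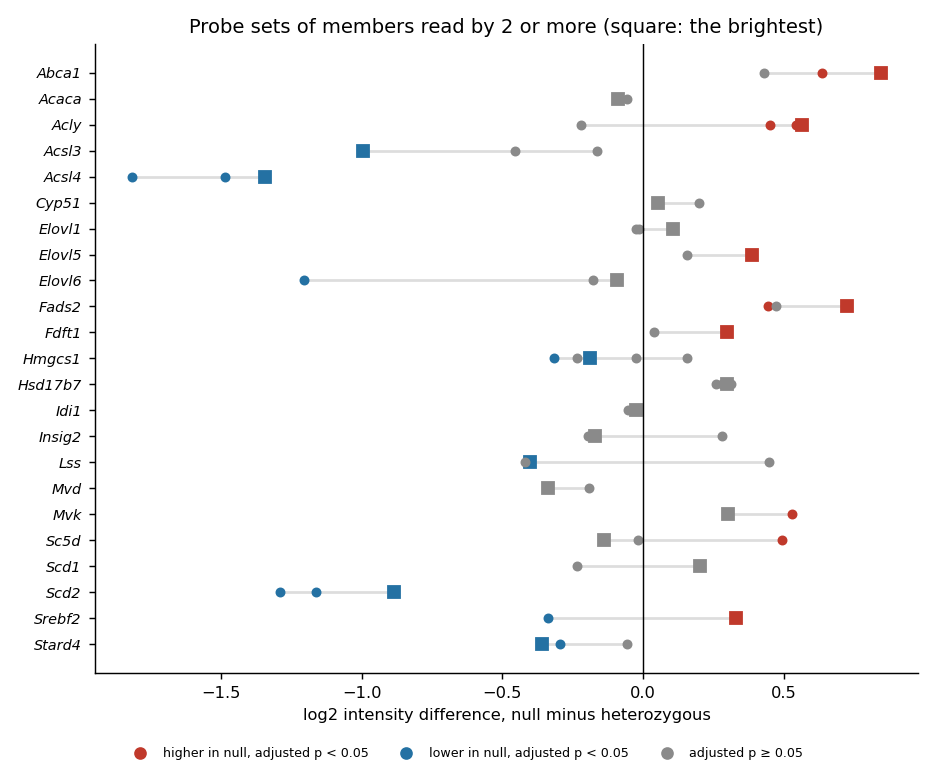
Log2 difference (null minus heterozygous) of every probe set above the filter for the 23 members read by 2 or more; squares mark the brightest probe set, and colours show the adjusted p over all probe sets. Acsl4, Scd2 and Abca1 keep 1 direction across their probe sets, and the 2 probe sets of Srebf2 lie at 0.33 and -0.34.

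Lipid genes that are not members, taken from a list of 60 drawn up by role, were measured for 49. Of these 5 were called higher and 4 lower, beside 7.23% and 6.20% of all genes. At the adjusted p alone 17 rose and 14 fell, 63.3% of the 49, beside 48.8% of all genes. With arrays centred on medians 24 rose and 10 fell. Those that supply fatty acid synthesis included the clearest rises. Me1, malic enzyme, which makes NADPH, read 2169, 2162 and 2074 in null cells, against 727, 842 and 783 in heterozygous cells, a 2.73-fold rise (limma adjusted p 1.39e-07). Acss2, which makes acetyl-CoA from acetate, read 386, 393 and 382 in null cells, against 153, 176 and 155 in heterozygous cells, a fold of 2.40. The lines were far apart for both genes. Thrsp, a regulator of lipogenesis, was dim, at 98.7 to 123 in null and 23.1 to 60.4 in heterozygous cells, and 2.57-fold higher once readings under 32 were set to 32. Without probe sets that share sequence, another probe set stood for Thrsp, at 0.57 (limma adjusted p 0.239). Its relative Mid1ip1, which promotes the polymerisation of acetyl-CoA carboxylase, went the other way, with a difference of -1.12, or -0.97 with arrays centred on medians.

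Sterol handling showed a similar mixture. Mylip, a ubiquitin ligase that removes lipoprotein receptors, read 450, 391 and 394 in null cells, against 210, 176 and 147 in heterozygous cells, a fold of 2.33 (limma adjusted p 5.97e-05). Ube2g2, a ubiquitin-conjugating enzyme of endoplasmic reticulum degradation, fell 2.33-fold, at a difference of -1.22. Abcg1, a sterol exporter like Abca1 and in mouse likewise a known target of miR-33, read 198, 163 and 265 in null cells, against 410, 350 and 353 in heterozygous cells. Its difference was -0.86, opposite in sign to Abca1. Scarb1, the receptor for high-density lipoprotein, rose by 0.50, Dhdds, which extends dolichol, by 0.67, and Tmem97, a sterol-responsive membrane protein, by 0.41.

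In the elongation list, 1 gene rose and 6 fell among 11, beside 24.5% and 24.3% of all genes, a description of a short list with no test. The enzymes that complete each elongation round after the elongase, Hsd17b12, Hacd1, Hacd2 and Tecr, all fell by small amounts, with differences of -0.33, -0.35, -0.42 and -0.30. Their fellow Hacd3 was at 0.20 and did not pass. For the members Lss, Dhcr7 and Stard4, falls of similar size did not pass with arrays centred on medians. Elovl4, an elongase of very long chains, read 115, 114 and 114 in null cells, against 256, 237 and 269 in heterozygous cells, a difference of -1.15. It was at -0.998, just short of the threshold, with arrays centred on medians. Scd3, next to Scd1 and Scd2 in family, read 6.06, 58.7 and 36.9 in null cells, against 108, 92.5 and 114 in heterozygous cells, 2.54-fold lower once readings under 32 were set to 32. In the fit of the values as deposited, its adjusted p was 0.0253. That call was lost without heterozygous replicate 1, 2 or 3, at 0.0707, 0.0587 and 0.0723, and with no intensity trend, at 0.0981.

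Acyl-CoA synthetases outside the members did not follow Acsl3 and Acsl4. Acsl5, a mitochondrial and endoplasmic reticulum form, read 1856, 1879 and 1903 in null cells, against 1046, 1014 and 1009 in heterozygous cells, a log2 difference of 0.88 (limma adjusted p 1.9e-06). Acsl6 was dim and at 0.32, with a 95% interval of -0.22 to 0.86. Pcyt1a, the regulated enzyme of phosphatidylcholine synthesis, read 744, 781 and 741 in null cells, against 355, 391 and 303 in heterozygous cells, a fold of 2.17, and was at 0.85 as a mean over its probe sets.

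**Figure D5:**
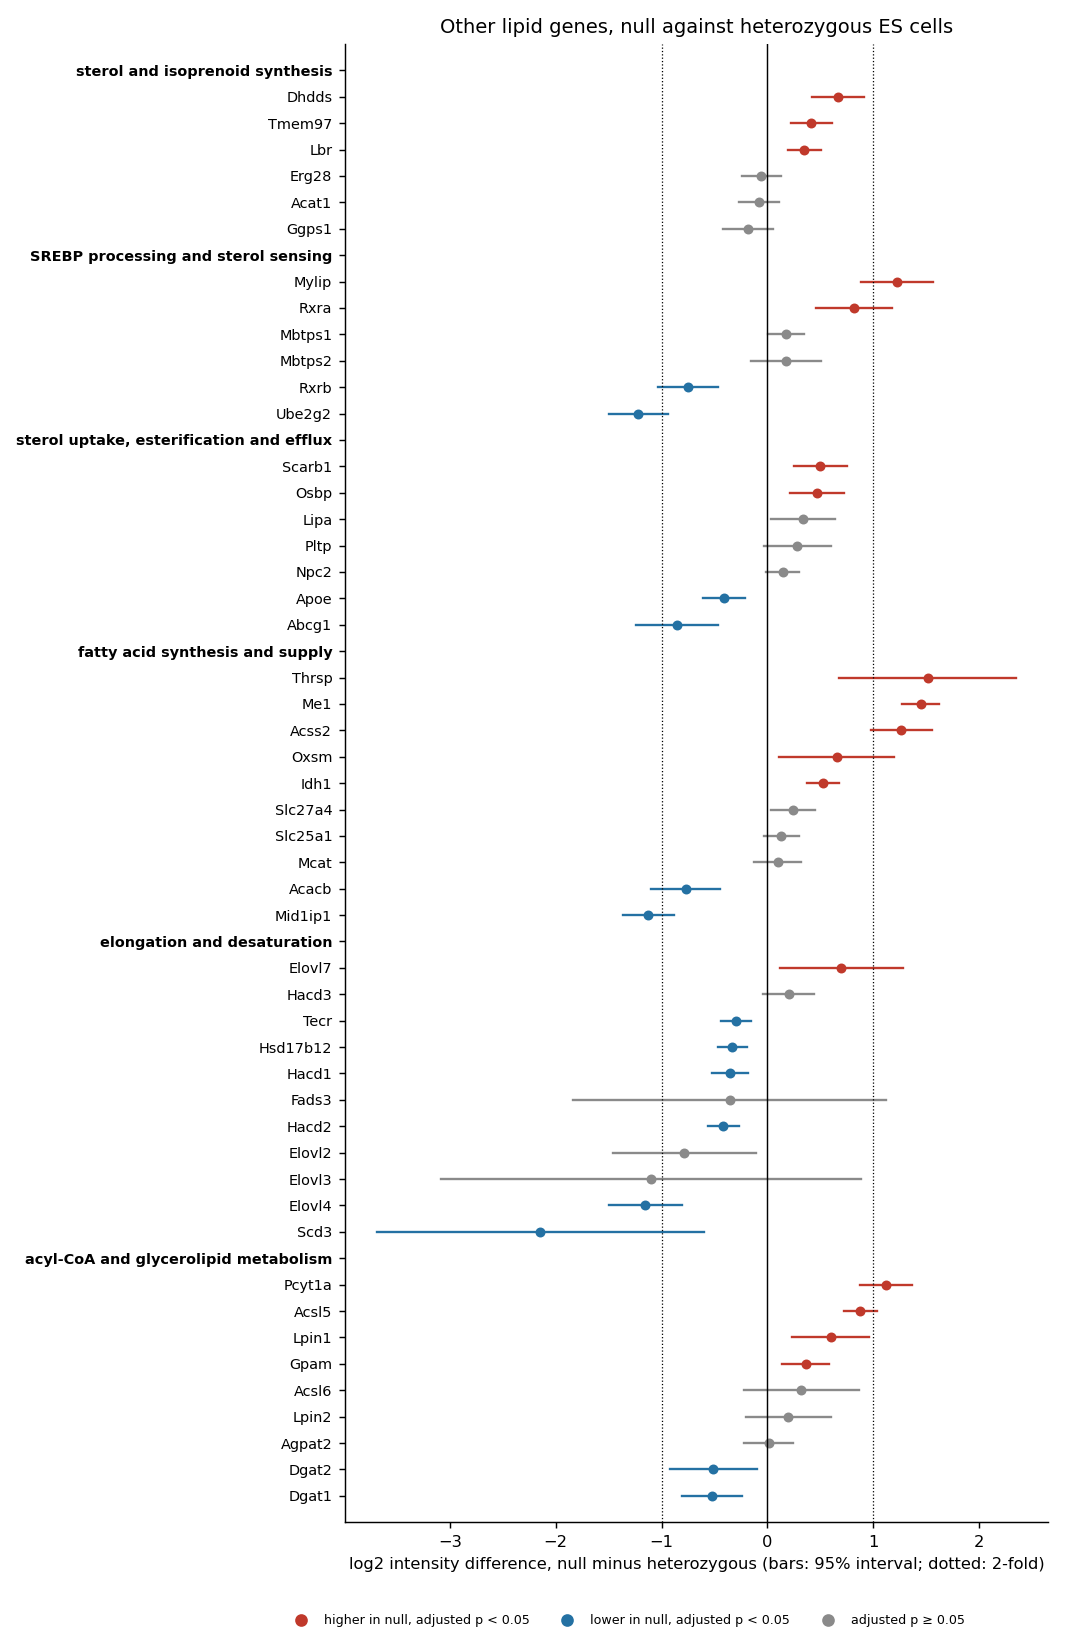
Log2 intensity difference (null minus heterozygous) with its 95% interval for 49 further lipid genes, grouped by role; dotted lines mark a 2-fold difference. Me1, Acss2, Mylip, Pcyt1a and Thrsp lie beyond the upper line, and Ube2g2, Mid1ip1, Elovl4 and Scd3 beyond the lower one.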

How the data were processed

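The authors' deposited table holds linear intensity values for the 6 arrays, as judged from their range, and the 2% trimmed mean of every array was 500. GCRMA is named in the submitters' processing notes, with no step given. Symbols came from the platform annotation, and 34945 probe sets carried 1 symbol. After a log2 transform, a probe set was kept at 5 or more (an intensity of 32) in at least 3 arrays, and 1 probe set per gene, the brightest, was kept.

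Lines were compared by limma 3.58.1 under R 4.3.3 (eBayes with an intensity trend, two-sided, group as the only term), with Benjamini-Hochberg adjustment over 12927 genes. Fold changes come from means of log2 values. The code was tested on simulated data. Intensities have no absolute unit, and 3 arrays per line set the precision.

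The members and gene lists were chosen with earlier results of these data known, so lists are described by counts and medians only. All members are named, with Dicer1, the called genes of the further list and the 2 largest changes past the test in each of its roles. Others are named as examples, picked after their values were seen. Alternatives changed filters, priors, scaling, the choice of probe sets and arrays; leaving out chromosomes 1 and 11 was added after seeing the data.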

Additional observations from a re-analysis of the deposited data

How the results depend on the processing

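Ebp was called higher and Acsl4 lower in all 18 alternatives that were run. Of the 20 members past the adjusted p, 9 kept direction and side of the threshold in every alternative in which they were tested: Ebp, Pmvk, Scap, Acly, Scd2, Fads1, Fads2, Acsl4 and Abca1. The cause of the following changes was not tested. With arrays centred on medians, 2 members were called higher (Ebp and Abca1), the adjusted p alone gave 17 higher and 4 lower, and the median was 0.17. The count called lower was 2 with quantile normalization and array weights (Acsl3) and with the mean over probe sets (Scd2), and 1 to 2 without single arrays. Without probe sets that share sequence, 33 members were tested and 4 were lower at the adjusted p alone. Signs turned for 3 members past the test, Hmgcs1, Lss and Srebf2, and for others that had not passed. With arrays centred on medians signs turned for Sqle (0.11), Fdps (0.099), Idi1 (0.13), Sc5d (0.016), Srebf1 (0.0061), Tm7sf2 (0.084), Acaca (0.066) and Elovl6 (0.063). With the mean over probe sets they turned for Sc5d (0.11), Srebf2 (-0.0028) and Scd1 (-0.017), and without shared sequence for Hmgcs1 (0.15) and Lss (0.45). Leaving out single arrays moved Fdps from -0.0996 to 0.0178, Idi1 from -0.142 to 0.0957, Cyp51 from -0.0548 to 0.118, Nsdhl from -0.0441 to 0.111 and Tm7sf2 from -0.286 to 0.0671. The replicate number as a block brought Fasn (0.21, adjusted p 0.0273) and Scd1 (0.20, adjusted p 0.0456) past the test and changed no other call of a member, with 13 higher and 9 lower; deviations of same-numbered arrays correlated at 0.033, 0.028 and 0.076, so the numbers were not taken to pair the arrays.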
